A study of Mus musculus with 2 samples.

Results

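The collagen chain genes are the 44 protein-coding mouse genes whose RefSeq symbol is Col, a number, a and a number, out of 21887 protein-coding genes. They were described in a ChIP-seq map (sequencing of immunoprecipitated chromatin) of H3K27me3, the trimethylated form of lysine 27 on histone H3. The tissue was sciatic nerve, taken from C57/BL6 males at 8 weeks of age. There was 1 ChIP library, made with an H3K27me3 antibody, and 1 input library from the same kind of chromatin without antibody. No mutant, treatment, injury or second tissue was in the series, and the sources used here do not give the number of animals per library. The material was whole nerve, so fewer cells that carry the mark and less mark per cell cannot be told apart. There were no replicates and no test was made: every value describes this 1 ChIP library.

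Collagens are proteins whose chains wind into a triple helix. Fibrillar collagens assemble into the banded fibrils that give tissue its tensile strength, type IV collagens form the sheet-like network of basement membranes, and the remaining types decorate fibrils, form beaded filaments or other networks, anchor epithelia or span the cell membrane. In peripheral nerve, fibroblasts and Schwann cells make the collagen of the endoneurium, and each Schwann cell is wrapped in a basement membrane. H3K27me3 is laid down by the Polycomb repressive complex and is found over genes that are kept silent. A peak list of this mark does not measure expression.

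The deposited list held 6018 peaks with a median of 14 reads each, and 10 reads was the lowest number in the list. The authors gave each peak a score, and the scores were whole multiples of 2.5735 (within 0.05 for 99.83% of them), so that a score divided by this step was read as a number of reads. A gene was called marked when at least 1 bp of a peak lay in its annotated span or in the 2 kb on either side. The exact 95% Poisson intervals given with reads, and the exact (Clopper-Pearson) intervals given with shares of genes, cover counting error only. For a count of 0, the largest share allowed was taken as 3 genes of the total. Of 5 fibroblast and perineurial marker genes, 1 was marked under this rule, Pdgfra, with 68 reads, and Dcn, Lum, Col1a1 and Slc2a1 were not. Over all protein-coding genes the share marked was 10.5%.

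Most collagen genes carried no H3K27me3 peak, and 1 gene, Col13a1, held more than all others together. Of the 44 genes, 8 were marked (18.2%, interval 8.19 to 32.7), beside 10.5% of all protein-coding genes (2302 of 21887). The marked genes were Col2a1 and Col27a1 among fibrillar chains, Col4a3 among basement membrane chains, and Col6a4, Col8a2, Col13a1, Col23a1 and Col25a1 among the rest. They shared 208 reads in 12 peaks, of which Col13a1 had 110 (52.9%). No peak at a member lay in the window of another protein-coding gene. All 8 genes had a peak inside the annotated span itself, so none was marked through a flank alone. The nearest peak to any unmarked member lay 11.2 kb away.

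**Figure D1:**
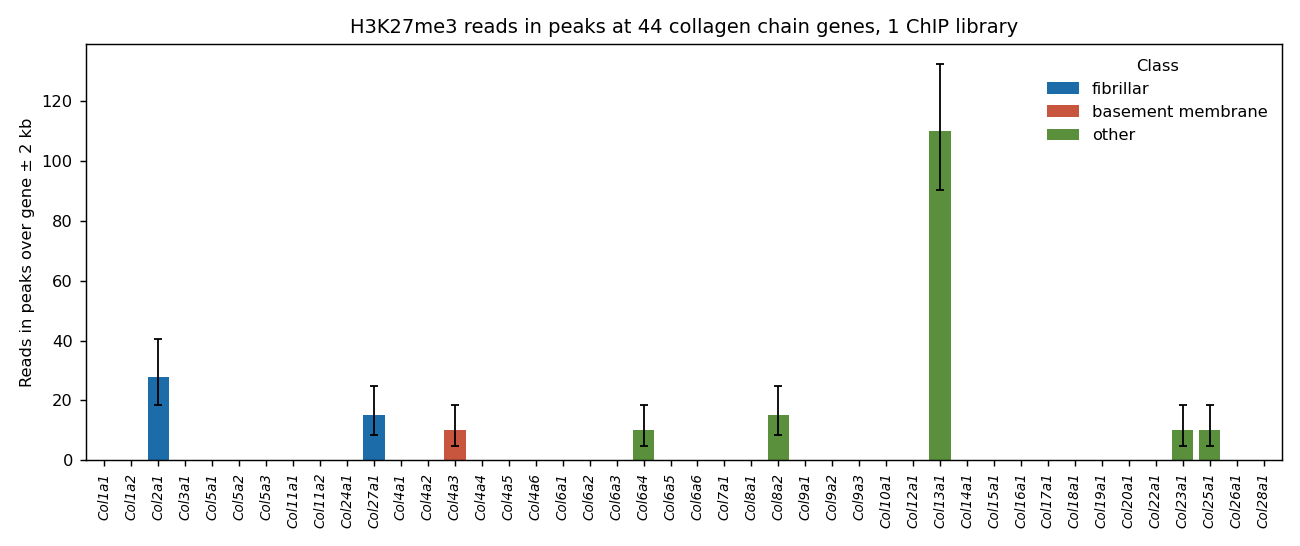
Reads in H3K27me3 peaks over each of the 44 collagen genes and the 2 kb on either side, coloured by class, with exact 95% Poisson intervals (counting error only) on the marked genes. Col13a1 stands at 110 reads, Col2a1 at 28, and the other 6 marked genes at 10 to 15, while 36 genes have no peak.

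Promoter sequences are shown first for the 3 genes with a peak within 2 kb of a start listed in the RefSeq promoter table (build GRCm38.p6, the assembly behind mm10), and then for a pair of fibrillar genes without any peak that stand at opposite ends of CpG content. Each runs 5′ to 3′ from 250 bases before the listed start to 50 after it. Capitals mark CG, the dinucleotide that is dense in CpG islands. Of the 44 members, 35 had an entry in that table. Those without one were Col1a1, Col2a1, Col4a3, Col5a2, Col9a3, Col12a1, Col14a1, Col22a1 and Col26a1.
Col13a1 (chr10:61979059-61979358, minus strand): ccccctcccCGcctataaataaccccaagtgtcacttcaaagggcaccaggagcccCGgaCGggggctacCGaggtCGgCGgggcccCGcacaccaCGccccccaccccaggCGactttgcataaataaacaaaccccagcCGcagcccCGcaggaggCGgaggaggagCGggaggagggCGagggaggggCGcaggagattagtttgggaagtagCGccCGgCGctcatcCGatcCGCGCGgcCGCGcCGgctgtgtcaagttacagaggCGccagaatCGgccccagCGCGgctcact
Col25a1 (chr3:130180595-130180894, plus strand): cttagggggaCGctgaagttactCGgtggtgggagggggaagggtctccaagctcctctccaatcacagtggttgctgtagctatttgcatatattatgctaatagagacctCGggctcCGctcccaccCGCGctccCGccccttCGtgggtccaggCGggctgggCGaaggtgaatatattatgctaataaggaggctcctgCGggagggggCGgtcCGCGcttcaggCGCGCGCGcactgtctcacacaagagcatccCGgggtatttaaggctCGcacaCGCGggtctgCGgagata
Col27a1 (chr4:63215162-63215461, plus strand): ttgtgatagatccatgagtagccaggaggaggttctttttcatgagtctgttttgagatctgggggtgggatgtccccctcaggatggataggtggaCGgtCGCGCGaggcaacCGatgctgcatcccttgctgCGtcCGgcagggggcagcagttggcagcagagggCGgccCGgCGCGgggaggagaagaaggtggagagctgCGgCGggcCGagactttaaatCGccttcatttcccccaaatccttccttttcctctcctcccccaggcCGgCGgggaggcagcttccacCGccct
Col5a1 (chr2:27886175-27886474, plus strand): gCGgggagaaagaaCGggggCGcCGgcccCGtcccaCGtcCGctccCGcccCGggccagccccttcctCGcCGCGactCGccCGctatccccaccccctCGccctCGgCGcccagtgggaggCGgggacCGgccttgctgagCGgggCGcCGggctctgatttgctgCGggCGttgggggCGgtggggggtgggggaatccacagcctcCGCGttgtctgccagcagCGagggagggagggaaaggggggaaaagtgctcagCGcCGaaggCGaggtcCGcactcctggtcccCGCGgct
Col3a1 (chr1:45311288-45311587, plus strand): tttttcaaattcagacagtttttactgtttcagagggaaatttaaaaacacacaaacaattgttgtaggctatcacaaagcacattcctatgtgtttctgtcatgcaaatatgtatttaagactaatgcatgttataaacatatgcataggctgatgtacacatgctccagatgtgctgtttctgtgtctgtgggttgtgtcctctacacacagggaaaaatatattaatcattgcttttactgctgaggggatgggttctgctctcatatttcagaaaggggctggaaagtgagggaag

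The peak at the Col13a1 start covered the whole of the Col13a1 window printed above, in which 29 CG stood. At Col25a1 the peak began 154 bp downstream of the listed start, and at Col27a1 it ended 736 bp upstream of it. Col5a1 had 34 CG in its window and no peak, and Col3a1 had no CG and no peak. CpG-rich windows were thus found both at marked and at unmarked members.

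Col13a1, which encodes a transmembrane collagen of cell-matrix adhesions and of the neuromuscular junction, carried 4 peaks with 110 reads (interval 90.4 to 133) on chromosome 10 (61838234 to 61979206, minus strand, mm10). The strongest, chr10:61977350-61979529, was 2180 bp wide with 47 reads (34.5 to 62.5) and contained the listed start. A second peak of 2009 bp with 42 reads (30.3 to 56.8) lay 41.2 kb downstream of the start, at chr10:61935941-61937949. The intervals of both read counts overlap, and the difference between the peaks was not tested. A pair of peaks of 500 bp, with 10 and 11 reads, lay 96.3 and 137 kb downstream. No non-coding gene of the RefSeq table overlapped any of the 4 peaks. The table gives no exons, so whether the inner peaks lay in exons or introns was not determined here. Peaks covered 3.58% of the Col13a1 window of gene and flanks. Of the 2302 marked protein-coding genes, 333 (14.5%) had at least as many reads, and the median marked gene had 26.

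Fibrillar collagens had 2 of 11 genes marked (18.2%, interval 2.28 to 51.8). Both belong to a list of 8 cartilage collagens, of which the other 6 had no peak, among them the fibrillar chains Col11a1 and Col11a2. Col2a1, the main fibrillar collagen of cartilage, had 28 reads (18.6 to 40.5) in 2 peaks on chromosome 15. A peak of 670 bp with 17 reads lay at chr15:97999604-98000273, inside the gene, and one of 500 bp with 11 reads, chr15:98004430-98004929, contained the gene's higher-coordinate end. Col27a1, a fibrillar collagen of growth plate cartilage, had 1 peak of 775 bp with 15 reads (8.40 to 24.7) at chr4:63213902-63214676, which contained the start of the annotated gene span. The 9 fibrillar genes without a peak were Col1a1 and Col1a2, the chains of type I collagen, Col3a1, the chain of type III, Col5a1, Col5a2 and Col5a3 of type V, Col11a1 and Col11a2 of type XI, and Col24a1. The nearest peak to these genes lay between 167 kb away, at Col1a1, and 2031 kb away, at Col11a1.

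Basement membrane collagens had 1 of 6 genes marked (16.7%, interval 0.421 to 64.1). Col4a3, which encodes a chain of the type IV network of the kidney glomerulus, had a single peak of 500 bp with 10 reads (4.80 to 18.4) on chromosome 1 (chr1:82598217-82598716), 11.3 kb inside the gene from its lower-coordinate end. Col4a4 overlaps Col4a3 by 114 bp and had no peak, and the Col4a3 peak was the one nearest to it. Col4a1 and Col4a2, the chains found in nearly every basement membrane, overlap each other by 85 bp and had no peak, the nearest one lying 278 kb from Col4a2. Their promoter windows held 37 and 33 CG. The X-linked pair Col4a5 and Col4a6 had no peak either, with the nearest one 33.7 kb from Col4a5.

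The other collagen types had 5 of 27 genes marked (18.5%, interval 6.30 to 38.1). Their subfamilies hold 1 to 9 genes each, and no difference between them was tested. Of the 4 transmembrane collagens, Col13a1, Col23a1 and Col25a1 were marked and Col17a1, a collagen of epithelial hemidesmosomes, was not (75%, interval 19.4 to 99.4, beside 10.5% of all protein-coding genes and 18.0% of those in the longest of 5 length classes). Outside Col13a1 these were single peaks at the lowest read number in the list. Col25a1, a collagen of neurons, had 1 peak of 500 bp with 10 reads just downstream of its listed start, chr3:130180999-130181498. Col23a1 had 1 of 500 bp with 10 reads, 134 kb inside the gene. The marked transmembrane genes had a median length of 294 kb, and Col17a1 spanned 45.7 kb. The part of gene length in this count was not tested.

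FACIT collagens, which attach to the surface of fibrils, had 0 of 9 genes marked (a count of 0 allows up to 33.3%). They were Col9a1, Col9a2, Col9a3, Col12a1, Col14a1, Col16a1, Col19a1, Col20a1 and Col22a1. Col20a1 and Col9a3 had peaks 18.5 and 19.0 kb away, in the windows of Chrna4 and Tcfl5, which are named after their values were seen. Of 6 beaded filament chains of type VI, Col6a4 was marked, with 1 peak of 500 bp and 10 reads 24.0 kb downstream of its start. Col6a1, Col6a2 and Col6a3, the chains of the common type VI filament, and Col6a5 and Col6a6 were not. Of 3 short-chain network collagens, Col8a2, a collagen of the corneal endothelium's basement membrane, had 1 peak of 752 bp with 15 reads, 14.1 kb downstream of its start. Col8a1 and the hypertrophic cartilage collagen Col10a1 had none. The remaining members without a peak were Col7a1, the chain of anchoring fibrils, Col15a1 and Col18a1, which are multiplexins of the basement membrane zone, Col26a1 and Col28a1.

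The 3 classes could not be told apart by the share of genes marked, which was 18.2% for fibrillar, 16.7% for basement membrane and 18.5% for other chains. Each interval contained the shares of both other classes. These shares do not allow for gene length, whose median was 45.1 kb for fibrillar, 137.5 kb for basement membrane and 106.4 kb for other chains. Per megabase of gene and flank the classes held 2.75 (0.568 to 8.05), 0.943 (0.0239 to 5.26) and 2.31 (0.999 to 4.56) peaks, in the same order. Genes were also listed by tissue, nerve matrix and cartilage, with earlier results of these data known. Of 14 collagens that are known from nerve matrix, 0 were marked. A count of 0 here allows up to 21.4%, above the 10.5% of all protein-coding genes and the 18.0% of the longest of 5 length classes. A lower share than in genes at large was thus not detectable. The 14 genes were Col1a1, Col1a2, Col3a1, Col4a1, Col4a2, Col5a1, Col5a2, Col5a3, Col6a1, Col6a2, Col6a3, Col15a1, Col18a1 and Col28a1. Of 8 cartilage collagens, Col2a1 and Col27a1 were marked (25%, interval 3.19 to 65.1). The intervals of both tissue lists overlapped, and their median gene lengths were 91.3 kb for nerve matrix and 28.4 kb for cartilage. Among 6 chondrocyte marker genes outside the family, Sox9 (133 reads), Acan (53 reads) and Comp (47 reads) were marked, and Matn1, Matn3 and Hapln1 were not. That is 50%, beside 10.5% of all protein-coding genes. These markers were added after their values were seen, and the difference was not tested.

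**Figure D2:**
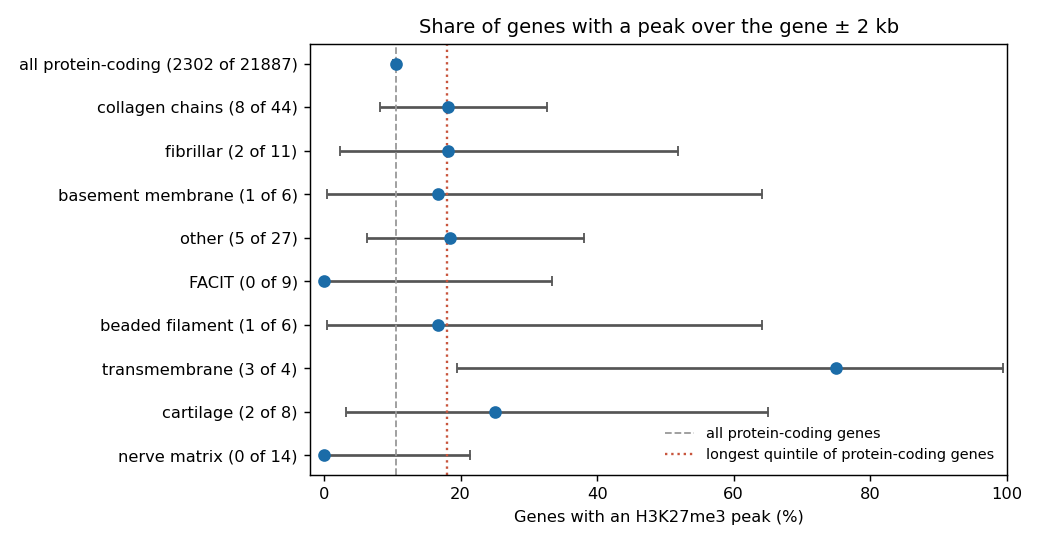
Share of genes with an H3K27me3 peak over the gene and the 2 kb on either side, as points with exact 95% intervals (for a count of 0, up to 3 genes of the total), for all protein-coding genes, the collagen family, its classes and 2 tissue lists. The 3 classes sit at 16.7 to 18.5%, and the nerve matrix list sits at 0. The dotted line marks the longest quintile of protein-coding genes, all of them longer than the median fibrillar gene (45.1 kb).

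Collagen genes are long, and the part of gene length in their share marked was not tested. The median member spanned 114 kb, against 17.2 kb over all protein-coding genes. When protein-coding genes were split into 5 classes of length, 28 members fell in the longest class (57.1 kb and over), of which 6 were marked (21.4%, interval 8.30 to 41.0), beside 18.0% of all genes in that class. In the next class, from 24.6 kb, 2 of 11 members were marked, a higher share than the 9.60% of all genes there. That share rests on 2 genes, and the difference was not tested. None of the 5 shorter members was marked, in classes with shares of 8.25% and 10.7%. The shortest class, with 6.1%, held no member. Per megabase of gene and flank, the family held 2.14 peaks (1.11 to 3.74) and 37.1 reads. All protein-coding windows held 3.46 peaks and 118 reads, and those of the longest class 1.96 peaks and 49.6 reads. Without Col13a1 the family held 1.46 peaks and 17.9 reads per megabase. Intervals on peaks treat neighbouring peaks as independent, which they may not be.

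The member peaks were mostly small. Of the 12, 7 (58.3%) were 500 bp wide, the list's minimum, beside 41.6% of all peaks, and the same 7 held 10 or 11 reads, beside 36.7% of all peaks. Outside Col13a1, all 8 peaks had 17 reads or fewer, as did 61.5% of the whole list. Read density ran from 19.4 to 25.4 reads per kb, around the list median of 21.0. The 7 peaks of 500 bp with 10 or 11 reads stand at 20 or 22 reads per kb by arithmetic. The narrow range is thus partly set by the list's minimum width and reads. With peaks of at least 20 reads, 1 of the 44 genes was marked, Col13a1, beside 5.46% of all protein-coding genes.

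**Figure D3:**
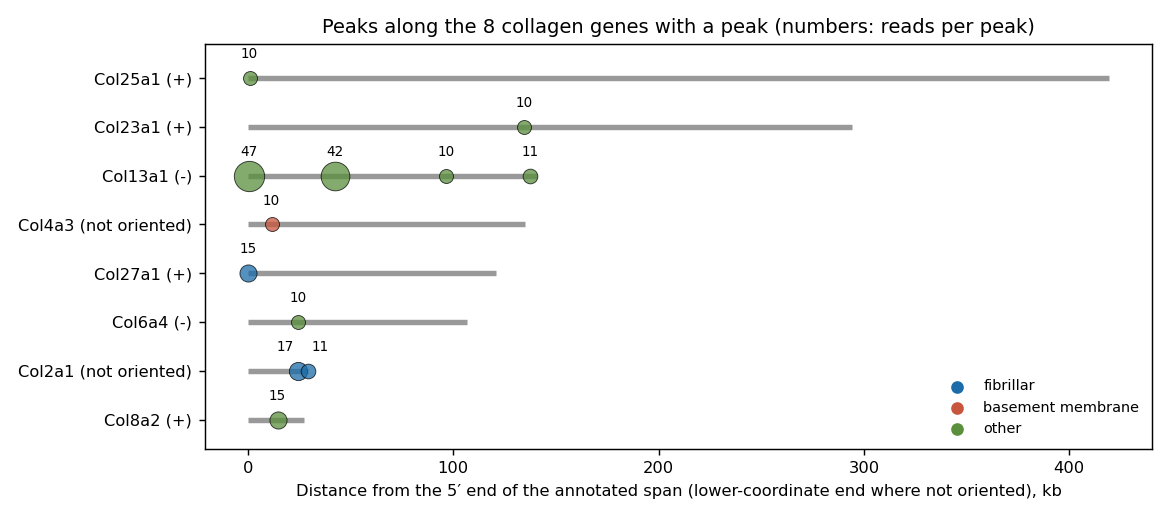
Position of the 12 peaks along the 8 marked collagen genes, in kb from the 5′ end of the annotated span, or from the lower-coordinate end for Col2a1 and Col4a3, whose strand was not in the promoter table. Circle area is proportional to reads, printed above each peak, and the 2 large circles are the Col13a1 peaks of 47 and 42 reads.

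By position, 4 of the 12 peaks lay within 2 kb of an annotated gene end, those of Col13a1, Col25a1, Col27a1 and Col2a1, and 8 lay deeper in the gene. Counted within 2 kb of either end, 4 of the 44 genes (9.09%) were marked, beside 8.59% of all protein-coding genes. Counting starts alone, 3 of the 35 members with a promoter entry had a peak within 2 kb of a listed start (Col13a1, Col25a1 and Col27a1), a share of 8.57% beside 7.31% of all protein-coding genes with an entry. All of the 3 had CpG-rich promoter windows, defined as a ratio of observed to expected CG over 0.6 with over 50% G and C. Of the 38 member windows, 11 (28.9%) were CpG-rich, against 44.9% of 21263 windows of protein-coding genes. The count was 3 of 11 CpG-rich member windows with a peak within 2 kb, and 0 of the 27 others. Over all protein-coding genes the shares were 8.99% for genes with a CpG-rich start and 5.89% for genes with another start. The median ratio was 0.77 (range 0.22 to 0.86) in 6 windows of marked members and 0.40 (0.00 to 0.90) in 32 windows of unmarked ones. CpG-rich windows numbered 5 of 6 (83.3%) at marked members, the exception being Col6a4 at 0.22, and 6 of 32 (18.8%) at unmarked members. Of the 5, Col8a2 and Col23a1 had their peaks away from the listed start. The marked genes Col2a1 and Col4a3 had no promoter entry and are not in these counts. The contrast between marked and unmarked members was seen in the data and not tested, nor was it counted over all protein-coding genes.

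**Figure D4:**
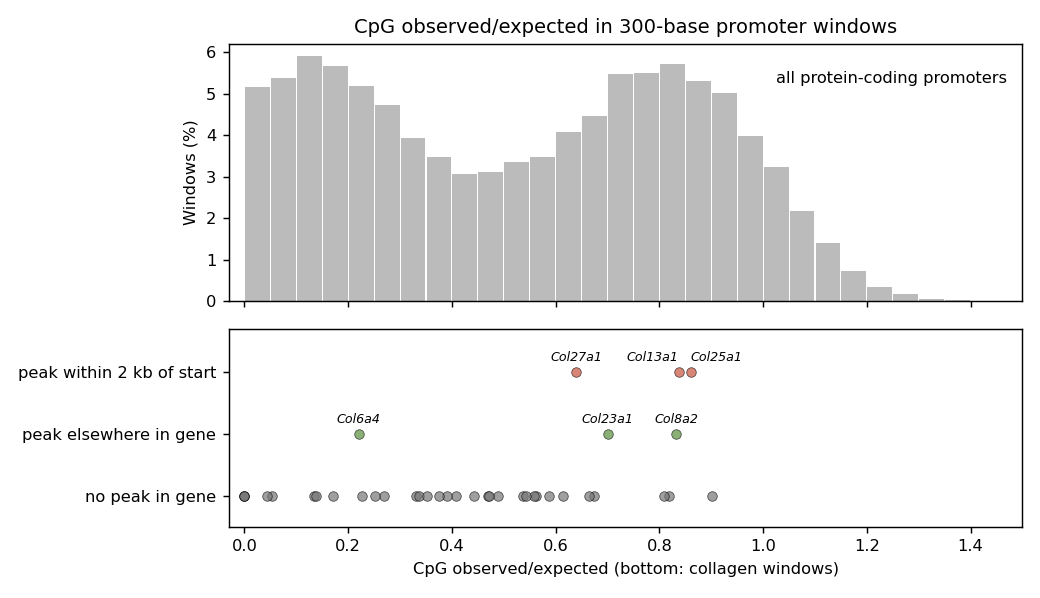
Ratio of observed to expected CG in promoter windows of 300 bases, for all protein-coding promoters (top, percent of windows) and for collagen windows (bottom, 1 point per window) by where the gene had a peak. The 3 windows with a peak within 2 kb of the start lie at 0.64 to 0.86, and unmarked members run from 0.00 to 0.90.

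Genes that make, process or bind collagen were marked about as often as genes in general, 6 of 51 (11.8%) beside 10.5%. Itga11, a collagen-binding integrin subunit, had 1 peak of 1100 bp with 32 reads (21.9 to 45.2) near a gene end. Pcolce2, an enhancer of procollagen C-proteinase, had 1 of 931 bp with 25 reads (16.2 to 36.9), and Loxl1, a lysyl oxidase-like enzyme of crosslinking, 1 of 803 bp with 16 reads. Mia3, which loads procollagen for export from the endoplasmic reticulum, had 11 reads, and the procollagen N-proteinase genes Adamts2 and Adamts14 had 10 each. None of 13 prolyl hydroxylase, lysyl hydroxylase and related modifying genes (up to 23.1% allowed) and none of 10 fibril-binding proteoglycan genes (up to 30% allowed) was marked, among them P4ha1, Plod1, Dcn and Lum.

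Related matrix families were counted under the same rule, beside 10.5% of all protein-coding genes. Some of their genes, among them the marked Itga11, Adamts2 and Adamts14, were also in the count of collagen pathway genes above. Marked genes numbered 4 of 26 integrin subunits (15.4%, interval 4.36 to 34.9), 1 of 11 laminin chains (9.09%), 3 of 23 matrix metalloproteinases (13.0%) and 6 of 19 Adamts proteases (31.6%, interval 12.6 to 56.6). Together 17.7% of these 79 genes were marked, with shares from 9.09 to 31.6%. The collagen share of 18.2% lay within the interval of each of the 4 families, and no difference between families was tested. These shares do not allow for gene length. The median length was 114 kb for collagens, 56.4 kb for integrins, 64.5 kb for laminins, 12.7 kb for metalloproteinases and 114 kb for Adamts genes. Per megabase of gene and flank they held 2.14 (1.11 to 3.74), 1.99 (0.542 to 5.09), 0.620 (0.0157 to 3.45), 6.94 (2.25 to 16.2) and 3.74 (1.71 to 7.10) peaks, in the same order. These rates rest on 12, 4, 1, 5 and 9 peaks, and all of the intervals overlap.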

How the data were processed

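H3K27me3 ChIP-seq peaks of mouse sciatic nerve were analysed. Per the labels' protocols, nerve was crosslinked in 1% formaldehyde for 10 min and chromatin was sonicated to 0.5 to 2 kb on average. The submitters' processing notes name Bowtie, without a version, and the build mm10. Which caller made the peaks, at what threshold and with what use of the input is not stated in the sources used here, and input values were not analysed here. The deposited file gives each peak a score by the authors, whose meaning is not stated. It was divided by the step of the scores, 2.5735, and read as whole reads.

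Gene spans came from a RefSeq table of GRCm38.p6 and starts from a RefSeq promoter table. Marked genes were counted with Python 3.11.15, pandas 2.3.3 and SciPy 1.17.1. The overlap rule was checked on simulated peaks planted at 150 of 200 genes, all recovered with 0 false calls. A peak of 10 reads has an interval of 4.80 to 18.4 reads, a relative error of 31.6%.

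Every collagen symbol in the table was a member and is named. The lists of classes, tissues, pathway genes and markers were chosen with earlier results of these data known. The rule for named genes took every member, every gene that shares a peak with one (there was none) and every marked pathway gene. Marker genes, genes at peaks within 20 kb of a member and the unmarked pathway genes given as examples were added after their values were seen. A marker list of Schwann cells is not reported here. The subfamily, CpG and related-family counts are descriptions. Alternatives varied the window, the peaks, the overlap, peaks shared with other genes, the class limits and the chromosomes.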

Additional observations from a re-analysis of the deposited data

How the results depend on the processing

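The 8 marked collagen genes remained marked with no flanks, with 5 kb flanks, with at least 500 bp of the window covered, and with peaks in no other gene's window. These settings could not have changed the count. Every member peak was at least 500 bp wide and lay wholly in its window, and each of the 8 genes had a peak in its span. None of the peaks was shared, and no unmarked member had a peak within 5 kb. On autosomes alone the count was 8 of 42 (19.05%), beside 11.07% of autosomal protein-coding genes. In all, 51 of 69 alternative values stayed close to the main value, meaning within 1.5 times it for a count of genes and within its Poisson interval for reads. The 51 include the values above that could not move. They also include the reads inside windows, which had to equal the reads of whole peaks. Their number is therefore no measure of robustness. With windows of 2 kb around either gene end, 4 of 44 collagen genes were marked (9.09%), beside 8.59% of all protein-coding genes. The counts were 0 of 6 basement membrane and 2 of 27 other chains. Around listed starts only, 3 of 35 collagen genes were marked (8.57%), beside 7.31% of all protein-coding genes with an entry. The counts were 1 of 8 fibrillar, 0 of 5 basement membrane, 2 of 22 other and 1 of 6 cartilage genes. With peaks that scored 36.0, the median, or more, 4 of 44 collagen genes were marked (9.09%), beside 7.08% of all protein-coding genes. The counts were 0 of 6 basement membrane, 2 of 27 other and 3 of 51 pathway genes (5.88%). The fibrillar and cartilage counts stayed at 2 of 11 and 2 of 8. With peaks of at least 20 reads, chosen after seeing the data, 1 of 44 collagen genes was marked (Col13a1, 2.27% beside 5.46% of all protein-coding genes). The counts were 0 of 11 fibrillar, 0 of 6 basement membrane, 1 of 27 other, 0 of 8 cartilage and 2 of 51 pathway genes (3.92%). These settings use smaller windows, fewer genes or fewer peaks. The nerve matrix list had 0 marked genes in every setting run, but no setting could have raised this count. The widest windows had 5 kb flanks, and no unmarked member had a peak within 5 kb. Depth limits single peaks of 10 reads, which 5 of the 12 member peaks were. With 1 library, variation between animals could not be measured. The labels give no replicate numbers, and no paired analysis was possible because each group had 1 library.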
